A study of Homo sapiens with 18 samples.

Results

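The 46 genes described here encode enzymes and subunits that write, erase or read histone marks or move nucleosomes. They were taken as a named list of 13 genes of lysine methylation, 8 of demethylation, 8 of Polycomb, 8 of acetylation and 9 of chromatin remodelling, mostly subunits of the BAF complexes, and each symbol was matched to its Ensembl identifier. All 46 were found among the 61860 genes of the deposited count table and all 46 passed the filter on low counts, which left 16760 genes for testing.

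RNA was sequenced from H1 cells, an established line of human embryonic stem cells, in a study of transcript half-lives and N4-acetylcytidine, the RNA modification written by the acetyltransferase NAT10. The cells carried a lentivirus for GFP with either a negative control shRNA or shRNA against NAT10, were enriched for GFP and were expanded with puromycin, in control and knockdown alike. Actinomycin D, which blocks transcription, was applied for 0, 1.5 or 3.5 h, and each of the 6 groups had 3 libraries of polyadenylated RNA, 18 in all. The labels give no separate culture for each library and do not say how many shRNA sequences or clones stand behind the knockdown. In the main fits the p-values therefore measure the spread between these libraries, pooled over the 6 groups, and that spread may be technical.

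Histone methylases and demethylases set the balance of activating and repressive lysine marks at promoters and enhancers. Polycomb repressive complex 2 methylates histone H3 and complex 1 ubiquitylates histone H2A, and together they hold developmental genes silent in embryonic stem cells. Acetylases open chromatin, deacetylases counter them, and the BAF complexes use ATP to slide or evict nucleosomes. Mouse embryonic stem cells are known to use a BAF complex built on SMARCA4, SMARCC1 and ARID1A, and many of these regulators are needed for self-renewal or for leaving pluripotency.

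Totals ran from 15037492 to 15519197 counts per library. NAT10 stood at 209, 211 and 210 CPM at 0 h in control, where CPM are read counts set to a common library size with the trimmed mean of M values (TMM), and at 20.4, 21.2 and 24.1 CPM in knockdown. Knockdown replicate 1 at 0 h stood apart: its counts differed from replicates 2 and 3 with a chi-square per degree of freedom of 17.6 and 25.2, against 2.31 between replicates 2 and 3. Of the marker lists, 12 pluripotency genes summed to 10440 to 11050 CPM in control and 8812 to 9317 CPM in knockdown at 0 h. POU5F1, NANOG, DNMT3B and DPPA4 of that list overlapped between the genotypes, and its other genes were lower in every knockdown library. At 0 h 6 proliferation genes summed to 1737 to 1858 CPM in control and 1167 to 1252 CPM in knockdown. The 9 fibroblast markers summed to 684.6 to 745.3 CPM in control and 1384 to 1830 CPM in knockdown, with COL3A1, LUM and DCN under 0.5 CPM in every library. COL1A1 made most of that difference, at 178, 192 and 195 CPM against 793, 1041 and 1106 CPM, while THY1 of the same list went the other way, at 345, 357 and 293 CPM against 94.4, 122 and 120 CPM. The 6 neural markers summed to 503.5 to 644.5 and 1150 to 1209 CPM, with SOX1 and NEUROG2 under 0.5 CPM. NES made most of that sum and of its difference, at 496, 563 and 634 CPM against 1099, 1166 and 1138 CPM. MAP2 was also higher, at 4.3, 5.0 and 6.0 CPM against 46.1, 38.9 and 38.4 CPM. PAX6 stayed under 1 CPM in every library, and DCX overlapped between the genotypes at 0 h. Trophoblast markers reached at most 10.6 CPM, mesoderm markers 1.76 CPM and endoderm markers 0.880 CPM in any library. The part of these shifts in the results below was not tested, and in bulk RNA fewer cells of a type and less RNA per cell cannot be told apart.

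At 0 h, before the block, chromatin regulators lay more often below than above the control when each gene was set against the typical transcript. In the edgeR quasi-likelihood test with TMM scaling, 25 of the 46 were lower in knockdown and 8 were higher at a Benjamini-Hochberg adjusted p under 0.05, beside 28.3% lower and 23.8% higher among all genes tested. The median log2 fold change of the 46 was -0.18, and that of all genes was -0.04. When libraries were scaled to the ERCC spike-in RNA instead, the median of all genes moved to -0.71, 42 of the 46 were lower (64.1% of all genes, with 5.58% higher) and the 8 higher calls were lost, so each direction at 0 h below is relative to the typical transcript. The ERCC RNA was added after purification and does not measure RNA per cell. The p-values given per gene at 0 h use a spread pooled over all 18 libraries. Knockdown libraries of 0 h varied more than that, with a chi-square per degree of freedom up to 25.2 between pairs. Within the groups of 1.5 and 3.5 h it was at most 3.61. The pooled spread can thus understate that of knockdown at 0 h. Fitted on the 6 libraries of 0 h alone, 14 of the 46 were lower and 8 higher (16.7% and 21.5% of all genes). Without knockdown replicate 1 the counts were 23 and 8 (31.2% and 25.7% of all genes).

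**Figure D1:**
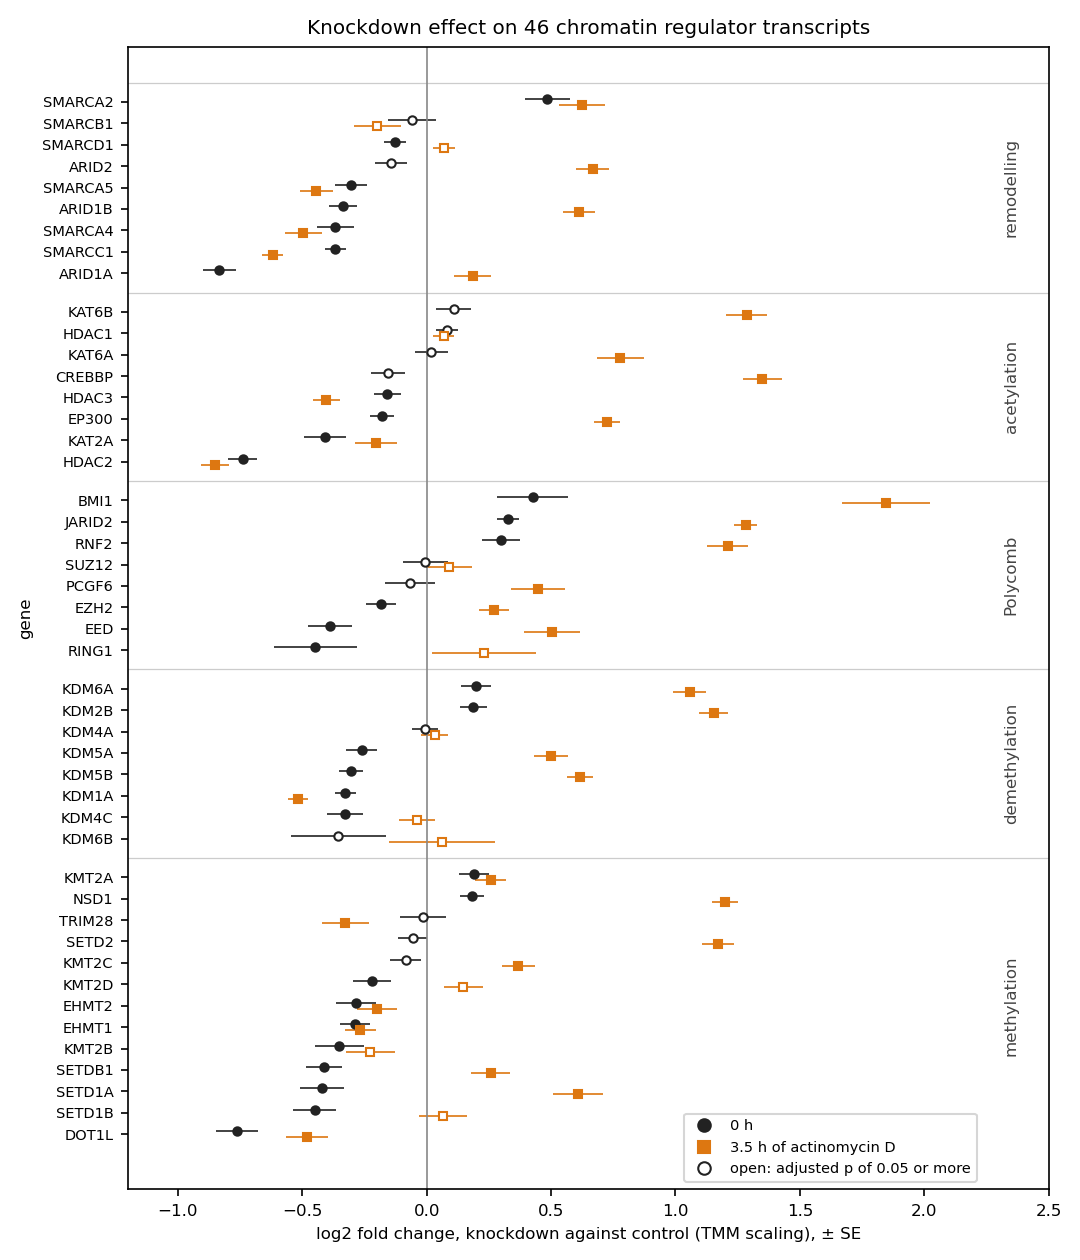
Log2 fold change of knockdown against control (x axis, TMM scaling, bars are standard errors) for each of the 46 genes (y axis), at 0 h (circles) and at 3.5 h of actinomycin D (squares), with open symbols where the adjusted p was 0.05 or more. At 0 h ARID1A, DOT1L and HDAC2 lie farthest to the left, at -0.83, -0.76 and -0.74, and at 3.5 h BMI1 lies farthest to the right, at 1.85.

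Per kilobase of transcript, levels of these genes in control cells at 0 h spanned from 455 ± 42.8 CPM per kilobase (SD, n = 3) for TRIM28, the corepressor that recruits SETDB1, to 0.626 ± 0.0546 for KDM6B. KDM1A at 155 ± 0.995 and SMARCC1 at 131 ± 2.37 CPM per kilobase followed TRIM28, and SMARCA4, HDAC1, SMARCD1 and JARID2 lay between 76.7 and 97.7. SMARCA4, at 97.7 ± 5.85, and HDAC1, at 95.3 ± 1.68 CPM per kilobase, did not differ beyond their spread, and neither did SMARCD1, at 76.9 ± 1.56, and JARID2, at 76.7 ± 3.64. The low end held SMARCA2 at 2.84 ± 0.221 and BMI1 at 1.03 ± 0.0993 CPM per kilobase. These levels rest on 1 annotated transcript per gene, which 45 of the 46 had.

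Among the methylation genes, 8 of 13 were lower at 0 h and 2 were higher, beside 28.3% lower and 23.8% higher among all genes. DOT1L, the methylase of the core of histone H3, was at 164, 174 and 155 CPM in control and at 78.6, 104 and 108 CPM in knockdown. Every knockdown library lay below every control library, and replicate 1 was the lowest. The log2 fold change was -0.76 ± 0.084 (SE, adjusted p = 7.1e-08), and -0.63 without that replicate. SETDB1, which silences retrotransposons together with TRIM28, was lower by a log2 fold change of -0.41 ± 0.072 (adjusted p = 3.8e-05), at 50.2, 46.3 and 44.5 CPM against 32.2, 37.1 and 36.5 CPM. TRIM28 itself did not pass at 0 h. Its 3 knockdown libraries read 1037, 1420 and 1539 CPM, of which replicate 1 lay below all the control libraries at 1367, 1460 and 1210 CPM. Without replicate 1 its log2 fold change was 0.14 (adjusted p = 0.041).

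SETD1A and SETD1B, alternative catalytic subunits in separate complexes that methylate promoter histone H3, were lower to a similar extent at 0 h. Their log2 fold changes were -0.42 ± 0.089 (adjusted p = 0.00036) and -0.45 ± 0.086 (adjusted p = 0.00013). The within-library log2 ratio of SETD1A to SETD1B was 0.99 ± 0.06 in control and 1.01 ± 0.08 in knockdown (SD, n = 3), and the groups overlapped. EHMT1 and EHMT2, which act as a heterodimer in repressive methylation, also kept overlapping ratios at every time, with a log2 ratio of 1.30 in both genotypes at 0 h. Both were lower at 0 h, by -0.29 ± 0.062 and -0.28 ± 0.080 on the log2 scale (adjusted p = 0.00042 and 0.0046), and EHMT2 by -0.18 without knockdown replicate 1 (adjusted p = 0.017).

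The MLL family split. KMT2A was at 77.1, 75.5 and 82.4 CPM in control and 89.8, 85.0 and 93.5 CPM in knockdown, with all knockdown libraries above all control libraries. KMT2B was at 89.4, 99.4 and 84.2 CPM in control and 55.5, 75.3 and 83.2 CPM in knockdown. Their log2 fold changes were 0.19 ± 0.061 (adjusted p = 0.011) and -0.35 ± 0.097 (adjusted p = 0.0041), and the latter was -0.20 without knockdown replicate 1. The log2 ratio of KMT2A to KMT2B, which needs no scaling, was -0.21 ± 0.18 in control and 0.34 ± 0.30 in knockdown at 0 h and did not overlap at any of the 3 times. KMT2D, which with KMT2C methylates enhancers, was at 217, 229 and 199 CPM in control and 157, 195 and 201 CPM in knockdown. The groups overlapped, and its call (log2 -0.22, adjusted p = 0.017) was lost without knockdown replicate 1 (log2 -0.12, adjusted p = 0.071). KMT2C did not pass, and NSD1, a methylase of gene bodies and intergenic regions, was higher by 0.18 ± 0.049 on the log2 scale (adjusted p = 0.0034), though under ERCC scaling it was lower, at -0.49 (adjusted p = 0.018), and KMT2A likewise, at -0.48 (adjusted p = 0.023).

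Of the 8 demethylases, 4 were lower and 2 higher at 0 h, beside 28.3% and 23.8% of all genes. KDM1A, the flavin-dependent demethylase that works with HDAC1 and HDAC2 in the CoREST complex, was at 477, 472 and 472 CPM in control and 372, 384 and 377 CPM in knockdown. The groups did not overlap, and the log2 fold change was -0.33 ± 0.041 (adjusted p = 4.5e-07). KDM5A and KDM5B remove promoter methylation of histone H3 and were lower by -0.26 ± 0.062 and -0.31 ± 0.048 (adjusted p = 0.0012 and 1.1e-05). KDM4C, which removes repressive methylation, was lower by -0.33 ± 0.072 (adjusted p = 0.00051), while its relative KDM4A, at 68.4 to 71.0 CPM in control and 67.9 to 71.0 CPM in knockdown, did not pass.

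The 2 higher demethylases were KDM2B, which brings a Polycomb complex to CpG islands, and KDM6A, which removes the methylation laid down by Polycomb. KDM2B read 182, 189 and 183 CPM in control and 196, 210 and 226 CPM in knockdown, a log2 fold change of 0.19 ± 0.055 (adjusted p = 0.0058). KDM6A read 98.8, 97.0 and 97.4 CPM in control and 123, 106 and 107 CPM in knockdown (log2 0.20 ± 0.062, adjusted p = 0.0095), and its log2 fold change was 0.13 without knockdown replicate 1 (adjusted p = 0.043). In both genes all knockdown libraries lay above all control libraries under TMM, and under ERCC scaling both were lower, at -0.49 and -0.46 on the log2 scale. KDM6B, the paralog of KDM6A, was at 2.19 to 4.45 CPM in all libraries of 0 h and did not pass.

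Of the 8 Polycomb genes, 3 were lower and 3 higher at 0 h, counts near the 28.3% and 23.8% of all genes. In complex 2, EZH2, the catalytic subunit, was at 111, 109 and 100 CPM in control and 100, 95.7 and 86.0 CPM in knockdown, and EED, which binds the methylated tail, was at 22.8, 23.0 and 24.3 CPM against 20.4, 16.5 and 16.6 CPM. Their log2 fold changes were -0.18 ± 0.059 (adjusted p = 0.012) and -0.39 ± 0.090 (adjusted p = 0.00087). The scaffold SUZ12 did not pass, at 36.1 to 45.0 CPM in control and 36.6 to 46.5 CPM in knockdown.

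JARID2, the accessory subunit that helps recruit complex 2 in embryonic stem cells, was higher. Its control libraries read 425, 434 and 465 CPM and its knockdown libraries 556, 555 and 549 CPM, with no overlap. The log2 fold change was 0.33 ± 0.044 (adjusted p = 1.6e-06). In complex 1 the ligase RNF2 read 46.6, 46.2 and 46.5 CPM in control and 65.7, 55.2 and 50.3 CPM in knockdown, and its paralog RING1 read 7.06, 6.0 and 5.28 against 3.85, 4.85 and 4.75 CPM. RNF2 was higher by 0.30 ± 0.076 (adjusted p = 0.0022), or 0.18 without knockdown replicate 1, and RING1 lower by -0.45 ± 0.17 (adjusted p = 0.028). BMI1, a partner of both ligases, was higher by 0.43 ± 0.14 (adjusted p = 0.015) at only 3.13 to 3.73 CPM in control and 4.05 to 5.57 CPM in knockdown. Without knockdown replicate 1 the calls of RING1 (adjusted p = 0.078) and BMI1 (adjusted p = 0.11) were lost. Under ERCC scaling JARID2, RNF2 and BMI1 read -0.34, -0.35 and -0.23 on the log2 scale, with adjusted p of 0.10, 0.10 and 0.41, so their direction at 0 h depends on the scale.

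The log2 ratio of RNF2 to RING1 within a library was 2.94 ± 0.21 in control and 3.67 ± 0.37 in knockdown at 0 h. That of BMI1 to PCGF6, an alternative partner in complex 1, was -2.26 ± 0.04 and -1.77 ± 0.08. Both ratios were higher in every knockdown library than in any control library at all 3 times. Exons of BMI1 are shared with the readthrough gene COMMD3-BMI1 on the same strand, so its counts are uncertain.

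Among the acetylation genes 4 of 8 were lower at 0 h, beside 28.3% of all genes, and the other 4 did not pass. HDAC2, which with HDAC1 forms the catalytic core of the NuRD, Sin3 and CoREST complexes, was at 482, 466 and 495 CPM in control and at 322, 276 and 267 CPM in knockdown. The groups were far apart, with a log2 fold change of -0.74 ± 0.056 (adjusted p = 1.5e-10). HDAC1 was at 206, 199 and 202 CPM in control and 214, 215 and 214 CPM in knockdown and did not pass (log2 0.08, adjusted p = 0.12).

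The balance of the 2 deacetylases therefore differed between the genotypes. Per kilobase, HDAC1 stood at 95.3 and HDAC2 at 48.7 CPM per kilobase in control, and at 101 and 29.2 in knockdown. That order rests on the 1 transcript taken per gene. It had 9874 bases for HDAC2, of which 8030 were 3′ untranslated, and 2124 bases for HDAC1. In CPM without division by length HDAC2 was the higher in both genotypes, so which of them is the more abundant is not settled here. The log2 ratio of HDAC1 to HDAC2 counts was -1.25 ± 0.04 in control and -0.42 ± 0.15 in knockdown (SD, n = 3), a difference of 0.83 that no scaling of the libraries can move. It was 0.82 at 1.5 h and 0.92 at 3.5 h, with no overlap at any time, and 3 against 3 libraries allow no exact permutation p below 0.1. HDAC2 overlaps exons of an antisense gene, and the strand setting of the counting is not given in the sources used here.

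HDAC3, the deacetylase of the NCoR and SMRT corepressors, was slightly lower (log2 -0.16 ± 0.054, adjusted p = 0.016), at 94.2, 98.8 and 100 CPM against 83.2, 88.6 and 90.7 CPM. KAT2A, the acetylase of the SAGA complex, was lower by -0.41 ± 0.084 (adjusted p = 0.00027), with knockdown replicate 1 at 46.6 CPM and the others at 62.9 and 63.0 CPM. EP300 was lower by -0.18 ± 0.048 (adjusted p = 0.0034), whereas its paralog CREBBP, likewise an acetylase of enhancers, did not pass (log2 -0.16, adjusted p = 0.056). Their ratio overlapped between genotypes at 0 h, at 0.74 ± 0.06 and 0.72 ± 0.10. KAT6A and KAT6B, a further pair of acetylases, did not pass.

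**Figure D2:**
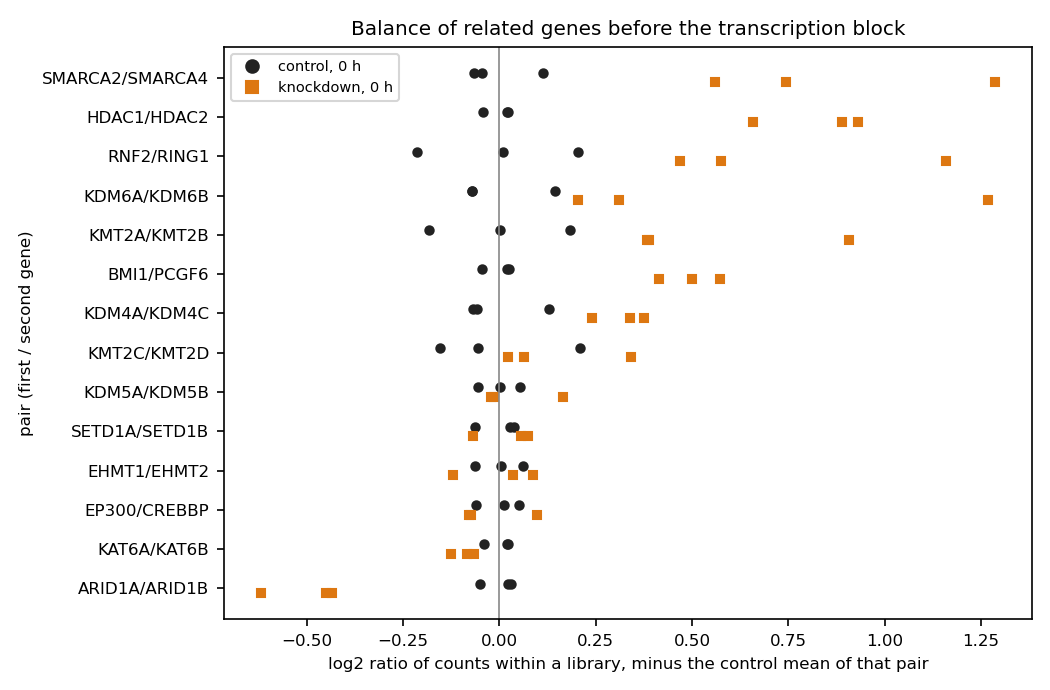
Within-library log2 ratio of counts for 14 pairs of related genes at 0 h (x axis), shown as the distance from the control mean of each pair, with circles for the 3 control and squares for the 3 knockdown libraries. SMARCA2/SMARCA4 and HDAC1/HDAC2 lie farthest to the right, with mean differences of 0.86 and 0.83, and ARID1A/ARID1B farthest to the left, at -0.50.

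Of the 9 remodelling genes, 6 were lower and 1 was higher at 0 h, beside 28.3% and 23.8% of all genes. ARID1A, the DNA-binding subunit of the canonical BAF complex, was at 197, 208 and 190 CPM in control and 99.6, 114 and 121 CPM in knockdown. No library of one genotype came near the other, and the log2 fold change of -0.83 ± 0.067 (adjusted p = 3.3e-10) was the largest decrease of the 46. Its alternative ARID1B was at 111, 111 and 102 CPM against 83.2, 84.4 and 88.7 CPM (log2 -0.34 ± 0.057, adjusted p = 2.7e-05). Both were lower but to unequal extents, so the log2 ratio of ARID1A to ARID1B was 0.88 ± 0.04 in control and 0.38 ± 0.10 in knockdown, without overlap. ARID2, which marks the alternative PBAF complex, did not pass, but without knockdown replicate 1 it was lower by -0.20 (adjusted p = 0.0051).

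The pair of alternative BAF ATPases moved apart. SMARCA4, the ATPase of the embryonic stem cell complex, read 533, 573 and 510 CPM in control and 342, 442 and 470 CPM in knockdown (log2 -0.37 ± 0.076, adjusted p = 0.00028, and -0.24 without knockdown replicate 1). SMARCA2, its paralog, read 17.8, 16.9 and 15.2 CPM in control and 25.8, 22.8 and 21.3 CPM in knockdown (log2 0.49 ± 0.091, adjusted p = 9.6e-05), the largest increase of the 46, although under ERCC scaling it was -0.17 with an adjusted p of 0.45. SMARCA2 remained a minor transcript. Per kilobase it stood at 3.97 ± 0.383 CPM in knockdown beside 75.8 ± 12.2 for SMARCA4. The log2 ratio of SMARCA2 to SMARCA4 was -5.02 ± 0.10 in control and -4.16 ± 0.38 in knockdown.

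The core subunit SMARCC1 was at 825, 823 and 851 CPM in control and 664, 641 and 633 CPM in knockdown, a log2 fold change of -0.37 ± 0.041 (adjusted p = 8.7e-08). SMARCA5, the ATPase of the separate ISWI family, was lower by -0.31 ± 0.065 (adjusted p = 0.00037). SMARCB1, a core subunit of the canonical BAF and PBAF complexes, was at 34.1 to 38.4 CPM in control and 27.3 to 38.7 CPM in knockdown and did not pass. SMARCD1 was lower by -0.13 (adjusted p = 0.022), a call lost without knockdown replicate 1 (adjusted p = 0.067).

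Of 119 other genes of the same 5 classes, 116 were tested, and 52 were lower and 18 higher at 0 h, with a median log2 fold change of -0.15, beside 28.3% lower and 23.8% higher among all genes. By class, 6 of 23 methylation, 7 of 12 demethylation, 10 of 24 Polycomb, 13 of 28 acetylation and 16 of 29 remodelling genes were lower, and in the same order 5, 2, 4, 4 and 3 were higher.

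With transcription blocked, transcripts of all 46 genes fell. Levels relative to the summed ERCC counts were lower at 3.5 h than at 0 h for 46 of 46 in control and 46 of 46 in knockdown, beside 81.1% and 97.3% of all genes tested. In control the decay slope, in log2 units of level per hour, ran from -0.12 for HDAC3 to -1.01 for KAT6A with a median of -0.52, steeper than the median of -0.32 over all genes. In knockdown the slopes ran from -0.31 to -0.91 with a median of -0.47, and the median of all genes was -0.42. The SD of the slopes over the 46 genes was 0.258 in control and 0.134 in knockdown, and over all genes it was 0.262 and 0.140, so the narrower range was shared with the whole transcriptome.

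The median slope in control was -0.60 for Polycomb, -0.58 for demethylation, -0.56 for acetylation, -0.53 for methylation and -0.32 for remodelling genes, as a description with no test between classes. Among the 116 other genes of these classes the medians, in the same order, were -0.38, -0.47, -0.40, -0.35 and -0.37. Spread within a class was wide. In the acetylation class the acetylases EP300, CREBBP, KAT6A and KAT6B had slopes of -0.85 to -1.01, the acetylase KAT2A had -0.28, and the deacetylases HDAC1, HDAC2 and HDAC3 had slopes of -0.12 to -0.23. In the remodelling class the ARID subunits ARID1A, ARID1B and ARID2 had slopes of -0.62 to -0.92, and the ATPases and core subunits -0.17 to -0.34.

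ARID1A was among the shortest-lived. In control its libraries at 3.5 h held 8.62%, 12.1% and 11.5% of the mean level of 0 h, and in knockdown 18.0%, 18.9% and 13.4%. HDAC3 stood at the other end, with 63.4%, 86.7% and 72.7% left in control and 53.5%, 50.3% and 39.8% in knockdown. For ARID1A every knockdown library held more than every control library, and for HDAC3 every knockdown library held less.

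In the authors' deposited table, which gives half-lives of 44 of the 46 genes in hours (those of BMI1 and KAT6A were not used here), the median half-life of these genes was 2.13 h in control and 2.22 h in knockdown. Over all genes of the authors' deposited table the medians were 3.05 h and 2.56 h. The authors' deposited table gave a longer half-life in knockdown for 26 and a shorter one for 18 of the 44, beside 67.4% shorter among 12306 genes. All 20 genes under 2 h in control were longer in knockdown in the authors' deposited table, as were 85.7% of the 2843 genes under 2 h overall. The longer ones also held genes over 2 h in control in the authors' deposited table, among them DOT1L (2.81 and 2.86 h) and KDM4C (2.57 and 2.63 h). All 8 genes over 4 h in control (TRIM28, KDM1A, HDAC1, HDAC2, HDAC3, SMARCA5, SMARCB1 and SMARCC1) were shorter in knockdown in that authors' deposited table, as were 98.6% of all genes over 4 h. Both groups were formed by the control half-life, which also enters the ratio, so the split is not independent of the grouping.

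The authors' deposited table put ARID1A at 1.08 h in control and 1.38 h in knockdown, and CREBBP at 1.24 h and 1.71 h. SMARCC1 went from 5.88 h to 2.88 h and TRIM28 from 5.03 h to 2.63 h in the authors' deposited table. HDAC3, the longest-lived of the 44 in the authors' deposited table, went from 8.63 h to 3.40 h. Half-lives over 3.5 h lie beyond the last time sampled, and the deposited values have no errors. On the ERCC scale the slope differences of SMARCC1, TRIM28 and HDAC3 did not pass in the edgeR test.

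**Figure D3:**
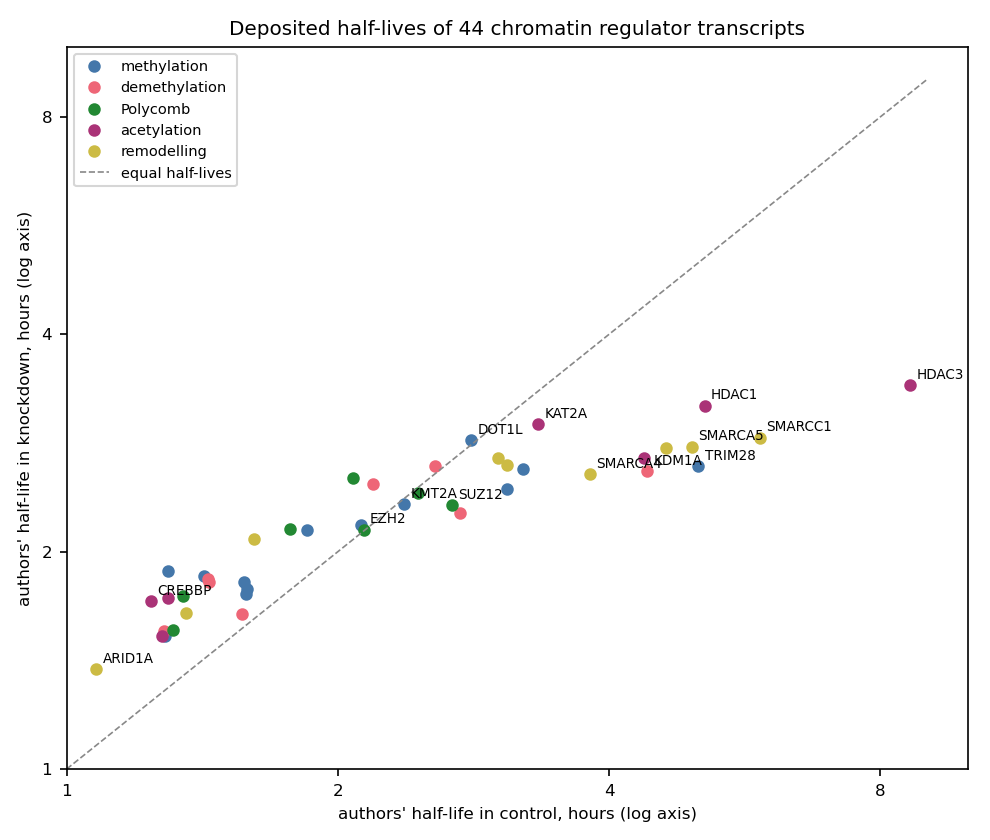
The authors' deposited half-life in knockdown (y axis, hours, log axis) against that in control (x axis, hours, log axis) for 44 genes, coloured by class, with a dashed line of equal half-lives. ARID1A (1.08 and 1.38 h) lies above the line at the lower left, and HDAC3 (8.63 and 3.40 h) lies below it at the far right.

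Tested gene by gene against the ERCC scale, few of these slopes differed between genotypes. The slope difference, knockdown minus control, was higher for 2 of the 46 (2.4% of all genes were higher and 11% lower), and the other 44 did not pass in the edgeR quasi-likelihood test. At an unadjusted p under 0.05, 8 were higher and 6 lower, and DESeq2 called CREBBP higher and TRIM28 lower. Shares of all genes are not given here for these 2 settings. The median difference was 0.02 for the 46 and -0.10 for all genes.

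CREBBP, the acetylase, had 7.26%, 11.7% and 9.49% of its level left in control at 3.5 h and 21.6%, 23.0% and 17.2% in knockdown, without overlap. Its slope difference was 0.32 ± 0.083 log2 per hour (adjusted p = 0.0031), and it passed without each of the 18 libraries in turn, at 0.26 to 0.36. SETD2, which methylates histone H3 along transcribed genes, had 11%, 15.3% and 12.6% left in control and 23.7%, 25.6% and 19.6% in knockdown. Its slope difference was 0.24 ± 0.083 (adjusted p = 0.038). The call was near the threshold and was lost when any of 7 single libraries was left out. Those were control replicate 1 at 1.5 h, control replicates 1 and 3 at 3.5 h, knockdown replicates 2 and 3 at 0 h and knockdown replicates 1 and 2 at 3.5 h, with adjusted p of 0.050 to 0.12. The call was also lost with DESeq2 (adjusted p = 0.062) and without the filter on low counts (0.081). It was lost too with the libraries of 0 and 3.5 h alone (0.081) and with TMM over the ERCC transcripts (0.055). With the change between 2 times taken as a factor in the fit to all 18 libraries, SETD2 and CREBBP both passed from 0 to 3.5 h. From 0 to 1.5 h neither SETD2 nor CREBBP passed. Without control replicate 2 at 0 h, control replicate 2 at 3.5 h or knockdown replicate 1 at 0 h, 4 of the 46 were called higher. Without control replicate 1 at 0 h, 7 were called lower (HDAC2, HDAC3, KDM1A, SMARCA4, SMARCA5, SMARCC1 and TRIM28), and without knockdown replicate 3 at 0 h 3 were. No shares of all genes are given here for the fits without 1 library, so these counts cannot be read as particular to the 46 genes.

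Relative to the typical transcript the picture had more calls. Under TMM scaling 23 of the 46 slope differences were higher in knockdown and 3 lower (20.5% and 11.1% of all genes), with a median of 0.13 beside 0.02 over all genes. The 3 lower were KDM1A, HDAC3 and SMARCC1. Libraries of a group varied by a common 6.29% on the TMM scale and 16.3% on the ERCC scale beyond counting noise, so the ERCC test had less precision.

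At 3.5 h of actinomycin D the comparison of the genotypes accordingly had more genes above the control than below. Under TMM scaling 24 of the 46 were higher and 11 lower in knockdown, beside 35% and 26.4% of all genes, with a median log2 fold change of 0.24 against 0.08. At 1.5 h, 9 were higher and 19 lower (28.4% and 26.2% of all genes). Under ERCC scaling 34 of the 46 were lower at 3.5 h (71.7% of all genes, with 4.71% higher) and BMI1 was the 1 higher (log2 0.80, adjusted p = 0.0078), so the higher direction of the others at 3.5 h is again relative to the typical transcript. Of the 116 other genes of these classes, 48 were higher and 32 lower at 3.5 h under TMM scaling, with a median log2 fold change of 0.08.

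Of the Polycomb genes 6 of 8 were higher at 3.5 h under TMM scaling and the other 2 did not pass. Among all genes 35% were higher and 26.4% lower. Of the 24 other Polycomb genes tested 8 were higher and 9 lower, with a median log2 fold change of -0.15. JARID2 read 137, 132 and 139 CPM in control and 339, 324 and 328 CPM in knockdown, a log2 fold change of 1.28 ± 0.046 (adjusted p = 1.1e-16). RNF2 was higher by 1.21 ± 0.082 (adjusted p = 8.8e-12). BMI1 read 1.60, 1.16 and 1.45 CPM in control and 5.06, 5.05 and 5.12 CPM in knockdown, a log2 fold change of 1.85 ± 0.18 (adjusted p = 3.7e-09).

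In the acetylation class 4 of 8 were higher and 3 lower at 3.5 h under TMM scaling, beside 35% and 26.4% of all genes. EP300, CREBBP, KAT6A and KAT6B were higher by 0.73, 1.35, 0.78 and 1.29 on the log2 scale under TMM, while under ERCC scaling these 4 did not pass. HDAC2 and HDAC3 were lower by -0.85 ± 0.056 and -0.40 ± 0.053 (adjusted p = 6.4e-12 and 5.3e-07), the acetylase KAT2A was lower by -0.21 (adjusted p = 0.038) and HDAC1 did not pass. CREBBP read 26.0, 30.5 and 29.6 CPM in control and 71.6, 75.5 and 72.3 CPM in knockdown. The log2 ratio of EP300 to CREBBP, level at 0 h, was 1.17 ± 0.11 in control and 0.55 ± 0.01 in knockdown at 3.5 h. That of SETD1A to SETD1B, also level at 0 h, was 0.45 ± 0.14 and 1.0 ± 0.11.

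In the methylation class SETD2 and NSD1 were higher by 1.17 ± 0.064 and 1.20 ± 0.052 at 3.5 h (adjusted p = 1.9e-13 and 3.3e-15), while TRIM28 was lower by -0.33 ± 0.093 (adjusted p = 0.0040). Among the demethylases KDM2B and KDM6A were higher by 1.15 ± 0.058 and 1.06 ± 0.067 (adjusted p = 4.5e-14 and 2.9e-12) and KDM1A was lower by -0.52 ± 0.041 (adjusted p = 1.4e-10). In the remodelling class SMARCC1, SMARCA4 and SMARCA5 were lower by -0.62, -0.50 and -0.44, and SMARCA2, ARID1B and ARID2 were higher by 0.62, 0.61 and 0.67. All of these higher values are on the TMM scale. On the ERCC scale NSD1, SETD2, KDM2B and KDM6A lay between -0.01 and 0.14 and did not pass, SMARCA2 and ARID1B were lower, at -0.43 and -0.45 (adjusted p = 0.049 and 0.035), and ARID2 read -0.39 (adjusted p = 0.064).

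Of the 46 genes, 9 were lower in knockdown at 0 h and higher at 3.5 h under TMM scaling, a pattern of 4.27% of all genes. They were SETD1A, SETDB1, KDM5A, KDM5B, EZH2, EED, EP300, ARID1A and ARID1B. The crossing is on the TMM scale alone: under ERCC scaling 8 of the 9 were lower at 3.5 h too, at -0.45 to -0.87 on the log2 scale, and EP300 did not pass (log2 -0.34, adjusted p = 0.11). KDM5B read 322, 317 and 322 CPM in control and 259, 253 and 267 CPM in knockdown at 0 h, then 88.3, 83.8 and 86.4 against 125, 134 and 137 CPM at 3.5 h. ARID1A, the gene farthest below control at 0 h, read 43.7, 44.7 and 50.9 CPM against 53.1, 55.1 and 50.1 CPM at 3.5 h, where the groups overlapped and the call was narrow (log2 0.18 ± 0.074, adjusted p = 0.034). The comparisons at 0 h and 3.5 h use different libraries, while the slopes use all of them.

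**Figure D4:**
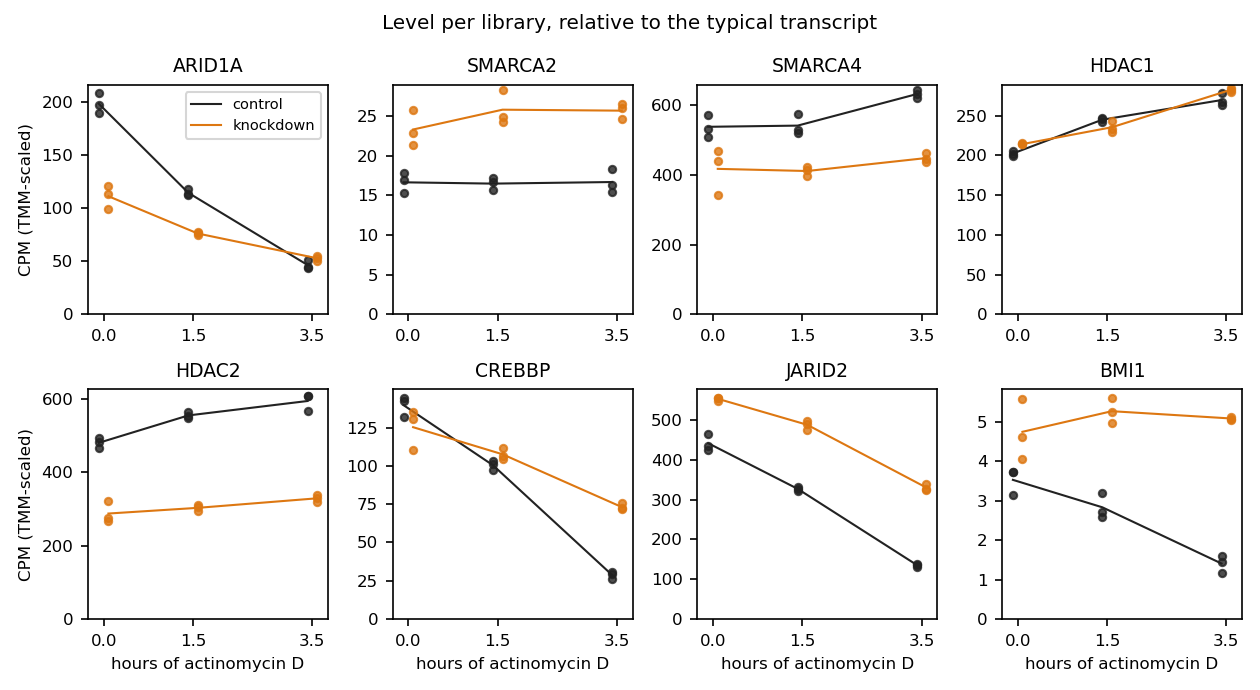
TMM-scaled CPM (y axis, starting at 0) in each library of 8 genes against hours of actinomycin D (x axis), with control in black, knockdown in orange and lines through the means of 3 libraries. HDAC2 in knockdown stays below control at all 3 times, JARID2 stays above, and CREBBP crosses from overlapping groups at 0 h to 28.7 against 73.1 CPM at 3.5 h.

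The fast-decaying members tended to have long coding sequences. Over the 45 genes with a usable transcript, Spearman's rho between coding length and control slope was -0.49, and over 13548 genes it was -0.15. The median coding length was 3897 bases for the 45 genes and 1461 bases for all. These are correlations across genes, which share libraries and are not independent, and genes of like length belong to the same families here.

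Letters of the Pumilio recognition motif UGUANAUA, bound by PUM proteins that promote deadenylation and decay, were present in the 3′ untranslated region of 20 of the 45 genes (44.4%). Among the 13548 genes tested that had a usable transcript, 26.3% held the motif. The motif was searched on the transcript strand only, with T for U, in 1 GENCODE v29 transcript per gene on GRCh38. The sites of 5 members of different classes whose control slopes were -0.72 or steeper are shown here for their like core in otherwise unlike surroundings, with the motif in capitals and 10 bases on each side.
ARID1A: ctgccacgtgTGTATATAtatgacgttg
CREBBP: ttttccccatTGTATATAaagtaccgct
JARID2: ccatccctttTGTACATAtgcctgtaaa
KDM2B: aggataagtaTGTAAATAcggggcgggc
SETD1A: tgggctggacTGTACATAtgttaatagc

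The sites start at base 854 of 1354 in the untranslated region of ARID1A, 1019 of 2664 in CREBBP, 1115 of 1770 in JARID2, 15 of 511 in KDM2B and 572 of 641 in SETD1A. ARID1A lies on chromosome 1 (26693236 to 26782110, plus strand), CREBBP on chromosome 16 (3725054 to 3880726, minus strand) and JARID2 on chromosome 6 (15246296 to 15522040, plus strand), all on GRCh38. Among the 45 genes the median control slope was -0.60 with the motif and -0.34 without it, and over the 13548 genes with a usable transcript it was -0.41 and -0.30. In knockdown the medians of the 45 were -0.53 and -0.41. The 5 members shown were picked by their slopes. HDAC2, SMARCA5 and SUZ12, with half-lives of 4.37, 4.94 and 2.68 h in control in the authors' deposited table, hold the motif too. EP300 and EED, at 1.28 and 1.31 h in the authors' deposited table, do not hold it. The untranslated regions with the motif were also longer, with a median of 2174.5 bases against 592 among the 45, and a match of letters does not show that a protein binds there. The AU-rich motif UUAUUUAUU was in 4 of the 45 genes (8.89%) and 8.0% of the 13548 genes. Its median control slope was -0.47 among the 4 and -0.51 in the rest of the 45.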

How the data were processed

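For 18 libraries the authors deposited unnormalized read counts of genes and ERCC transcripts, and in a second table a signal per gene and library (not used for tests), half-lives in hours and the log2 ratio of knockdown to control half-life, with no errors. Per the submitters' processing notes, hg38 was used with featureCounts 2.0.3, SAMtools 1.12, HISAT2 2.2.1 and fastp 0.21.1. Annotation and strand setting of the counting were not given in the sources used here. Genes with overlapping exons (SETDB1 with CERS2, DOT1L with PLEKHJ1, KDM2B with RNF34, KDM5A with CCDC77) are therefore uncertain.

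Genes were tested with edgeR 4.0.16 (R 4.3.3, filterByExpr, quasi-likelihood F test, adjusted over 16760 genes) in 1 fit to all 18 libraries. Genotypes were compared per time under TMM scaling. Changes over time and decay slopes (genotype by hours) used the summed ERCC counts as library sizes, 0.0857% to 0.544% of counts. CPM are counts over TMM-scaled totals. DESeq2 1.42.0 was an alternative. The comparison at 0 h and the slope term were tested on simulated counts under TMM scaling and its spread alone. The ERCC-scaled fits were not tested on simulated counts. Replicate numbers did not pair libraries: deviations of same-numbered libraries correlated between -0.21 and 0.15. Genes named are the 4 of each class with the smallest p at 0 h and for the slope difference, 14 paralog pairs and NAT10, with others where a count called for them. The members and lists were chosen with earlier results of these data known. Coordinates and transcripts are from GENCODE release 29.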

Additional observations from a re-analysis of the deposited data

Results flagged for a closer look

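The decay slope differed between control and knockdown cells by a test of the difference itself, under ERCC scaling, for SETD2 (0.2372 log2 per hour higher in knockdown) and CREBBP (0.3219). For SETD2 the call was lost when any of 7 single libraries was left out, with DESeq2 (adjusted p = 0.062) and without the filter on low counts (0.081). It was also lost with the libraries of 0 and 3.5 h alone (0.081) and with TMM over the ERCC transcripts (0.055). For the change from 0 to 1.5 h as a factor, in the fit to all 18 libraries, neither SETD2 nor CREBBP passed. For 9 genes the knockdown effect was below the control at 0 h and above it at 3.5 h, with a difference between the slopes that passed under TMM scaling: SETD1A (0.2960 log2 per hour), SETDB1 (0.1952), KDM5A (0.2217), KDM5B (0.2679), EZH2 (0.1352), EED (0.2533), EP300 (0.2624), ARID1A (0.2938) and ARID1B (0.2720). These 9 were chosen by their calls at 0 and 3.5 h, so the slope difference on the same libraries and scale restates that choice and adds no support to it. Under ERCC scaling the slope differences of these 9 genes did not pass.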

How the results depend on the processing

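Scaling moved the counts most. At 0 h, ERCC in place of TMM scaling gave 0 higher and 42 lower, with JARID2 at -0.34, RNF2 at -0.35 and SMARCA2 at -0.17, of opposite sign to the TMM values. It gave 0 and 35 at 1.5 h and 1 and 34 at 3.5 h. TMM in place of ERCC gave 9 higher and 29 lower for the change to 3.5 h in control and 9 and 21 in knockdown. TMM scaling gave 23 and 3 for the slope difference. Shares of all genes are not given here for ERCC scaling at 1.5 h or for TMM scaling of the changes to 3.5 h. The counts of those settings therefore cannot be read as particular to the chromatin regulators. Fitting only the groups compared left 14 lower at 0 h. The slope difference had 1 higher without the count filter, with 0 and 3.5 h libraries only and with DESeq2 (which had 1 lower). It also had 1 higher with TMM over the ERCC transcripts (chosen after seeing the data). With the change taken as a factor in the fit to all libraries, 3 were higher from 0 to 3.5 h and 0 from 0 to 1.5 h. Where a count was 0 higher it was also 0 at an unadjusted p under 0.05. Leaving out 1 library in turn gave 1 to 4 higher and 0 to 7 lower for the slope difference, 6 to 8 higher and 22 to 26 lower at 0 h, 9 higher and 17 to 19 lower at 1.5 h and 23 to 24 higher and 9 to 11 lower at 3.5 h. The mean log2 half-life ratio of the authors' deposited table was -0.0627, where the median was 0.05. The causes were not tested.

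With the replicate number as a block, 8 were higher and 26 lower at 0 h, 9 and 19 at 1.5 h, 24 and 11 at 3.5 h and 2 and 0 for the slope difference. The block moved no count by over 1.5 times.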
